A study of Homo sapiens with 9 samples.

Results

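A set of 10 genes that are widely used as readouts of YAP and TAZ were followed in Huh7 cells, an established line of human hepatocellular carcinoma cells, after transfection of siRNA. They were taken by Entrez gene number, with no filter on their values, from the 20575 genes in the expression tables. The set was chosen with earlier results of these data known. The 10 genes are CCN1 (also CYR61, Entrez 3491), CCN2 (also CTGF, 1490), ANKRD1 (27063), AMOTL1 (154810), AMOTL2 (51421), AXL (558), AJUBA (84962), CRIM1 (51232), F3 (2152) and NUAK2 (81788). Of these 10, 9 reached 1 CPM (a gene's reads scaled to the total reads counted in its library) in at least 3 of the 9 samples and were tested, among 12901 tested genes in all. The remaining member, AXL, was below this level in every sample.

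In all, 3 groups of 3 samples each were compared. All were Huh7 cells grown in high-glucose DMEM with 10% FCS, transfected with siRNA by the lipid reagent RNAiMAX and harvested 48 h later. They differed by the siRNA, which was a non-targeting siControl, siLATS1 or siLATS2. The labels name no other treatment, although the methods of the study speak of drug-treated cells, so the samples are named by siRNA. Nothing in the labels says whether the replicates were separate cultures, whereas the methods call them biological triplicates. The p-values measure the spread between these samples.

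YAP and TAZ are transcriptional co-activators that lack a DNA-binding domain and act mainly through TEAD transcription factors. The kinases LATS1 and LATS2 of the Hippo pathway phosphorylate YAP and TAZ, which keeps them out of the nucleus, and in the liver this pathway is known for its control of organ size and tumour growth. Textbook target genes fall into secreted matrix proteins (CCN1 and CCN2), a nuclear cofactor (ANKRD1), proteins that themselves feed back on the Hippo pathway (AMOTL1, AMOTL2, AJUBA and NUAK2), and membrane proteins (AXL, CRIM1 and F3). The question addressed was whether the level of these genes changed when either kinase was targeted.

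The siLATS1 reagent is shown because both comparisons that gave a called member rest on it. The study's siRNA list gives a pool of 4 siRNAs against LATS1, each 19 bases long, and a single siRNA that is the first of the pool. The labels do not say which of these was used. The sense strands are printed with the 7 bases that pair with positions 2 to 8 of the guide strand, its seed, in capitals.
siLATS1-1: ggugaagucugUCUAGCAa
siLATS1-2: uagcauggauuUCAGUAAu
siLATS1-3: gguaguucgucUAUAUUAu
siLATS1-4: gaaugguacugGACAAACu
All 4 lie in coding exons of LATS1, which is on the minus strand of chromosome 6 (GRCh37, 149979289 to 150039241). The first and the third match exon 5, at chr6:150001437-150001455 and chr6:150001294-150001312. The second matches exon 6, at chr6:149997836-149997854, and the fourth exon 4, at chr6:150005163-150005181. A perfect match of any of them was found in 0 other transcripts of the reference set of 1 transcript per gene, so none of the 10 target genes holds a full site. A 7-base match to a seed of the pool was present in the 3' UTR of CCN1, CCN2, ANKRD1, AMOTL1 and CRIM1 (1 each) and of AJUBA (2), and in none of AMOTL2, AXL, F3 and NUAK2, whereas 33.0% of the 18637 3' UTRs of the reference set held at least 1. The part of such matches in the results was not tested.

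Promoters are among the sequences through which TEAD factors are known to act, and sequences farther from the genes' start sites were not searched. RefSeq windows of the 250 bases before a start site (GRCh38.p14) were at hand for 8 of the 10 genes, with 11 windows in all. CCN1 and CRIM1 were not among them and were not searched. The TEAD core motif was searched as GGAATG on both strands. It was present in 1 window each of 6 genes, which were CCN2, ANKRD1, NUAK2, AMOTL2, AJUBA and AXL. Among 35116 promoter windows of the same length 11.9% held the motif at least once, 0.928% at least 2 times and 0.0797% at least 3 times. The 3 windows with more than 1 motif are shown, each read on the strand of its gene towards the start site, with the motif in capitals on either strand.
CCN2, chr6:131951373-131951622, minus strand: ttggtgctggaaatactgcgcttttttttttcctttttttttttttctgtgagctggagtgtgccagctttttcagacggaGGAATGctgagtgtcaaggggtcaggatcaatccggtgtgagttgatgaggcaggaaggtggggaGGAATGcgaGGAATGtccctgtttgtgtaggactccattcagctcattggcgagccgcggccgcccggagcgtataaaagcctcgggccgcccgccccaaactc
ANKRD1, chr10:90921088-90921337, minus strand: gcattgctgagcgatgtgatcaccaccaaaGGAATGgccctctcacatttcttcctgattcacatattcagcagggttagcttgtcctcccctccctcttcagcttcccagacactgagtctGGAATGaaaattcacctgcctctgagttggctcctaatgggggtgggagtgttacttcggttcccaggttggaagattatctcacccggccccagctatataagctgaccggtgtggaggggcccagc
NUAK2, chr1:205321746-205321995, minus strand: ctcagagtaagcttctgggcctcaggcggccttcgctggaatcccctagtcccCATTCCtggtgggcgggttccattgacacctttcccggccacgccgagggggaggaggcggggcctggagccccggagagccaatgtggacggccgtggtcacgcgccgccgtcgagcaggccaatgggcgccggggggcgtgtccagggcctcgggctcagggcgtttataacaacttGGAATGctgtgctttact
CCN2 held 3 motifs, which began 169, 104 and 95 bases before the start site. ANKRD1 held 2, at 220 and 128 bases, and NUAK2 held 2, at 197 and 18 bases, the former on the opposite strand. The AP-1 motif TGANTCA was present 2 times in the window of F3 and once in that of ANKRD1, against 6.57% of all windows with at least 1. A match of letters is a description and not a bound site.

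Before the comparisons, the library siControl replicate 1 has to be described, since it stood apart. Pearson's r of log2 values across the tested genes was 0.833 to 0.949 in the 8 pairs that include this library and 0.959 to 0.995 in the 28 other pairs. In it 4369 genes had no read, against 3369 to 3804 in the others, and 65.3% of tested genes differed at least 1.5-fold between it and the mean of siControl replicates 2 and 3. Depth was not apart, with 23789042 reads in a range of 23548247 to 32193525. Values against siControl are therefore also given without this library for the members and for the other genes named with a fold change. Over the tested genes, its deviation from its group mean went with those of siLATS1 replicate 1 (r 0.92) and siLATS2 replicate 2 (r 0.872). It went against those of siLATS1 replicate 3 (r -0.886) and siLATS2 replicate 3 (r -0.865). Variation of this kind within the siLATS1 and siLATS2 groups therefore remained when siControl replicate 1 was left out. The reason for these differences was not tested.

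LATS1, the kinase targeted by siLATS1, was read first. It was at 110, 55.2 and 62.9 CPM in siControl replicates 1, 2 and 3, at 27.1, 20.1 and 15.6 CPM in siLATS1, and at 54.7, 78.6 and 51.2 CPM in siLATS2. All 3 siLATS1 samples lay below the other 6. The log2 fold change was -1.78 ± 0.31 (SE) against siControl, with an unadjusted p of 4e-04 and an adjusted p of 0.13, and -1.50 without siControl replicate 1. Against siLATS2 it was -1.52. LATS2 was not among the genes in the expression data used here, so the effect of siLATS2 on its own target could not be checked.

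Compared per kilobase of transcript, the target genes spanned a wide range in siControl cells. ANKRD1 had 219 ± 72.6, CCN2 211 ± 6.56 and CCN1 130 ± 9.60 CPM per kb (mean ± SD, n = 3), and the first 2 of these did not differ beyond their spread. AJUBA at 57.3 ± 3.08 and AMOTL2 at 46.1 ± 16.3 CPM per kb followed, and they too overlapped within their spread. CRIM1 was at 31.6 ± 3.41, NUAK2 at 14.2 ± 6.23, F3 at 4.09 ± 0.664 and AMOTL1 at 3.83 ± 0.449 CPM per kb, with F3 and AMOTL1 alike within error. The secreted and nuclear readouts were thus the most abundant, and AXL lay at the bottom. Over siControl replicates 2 and 3 alone CCN2 came first at 210.0 CPM per kb, followed by ANKRD1 at 177 and CCN1 at 135, with the order of the others the same.

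CCN1 was lower in siLATS1 cells. This gene encodes a secreted matricellular protein that binds integrins (chromosome 1, 86046444 to 86050272, plus strand, GRCh37). It was at 272, 299.7 and 316 CPM in siControl, at 173, 196 and 134 CPM in siLATS1, and at 309, 298 and 339 CPM in siLATS2. Every siLATS1 sample was below every siControl and every siLATS2 sample, while the siControl and siLATS2 values overlapped. Means were 296 ± 21.9, 168 ± 31.8 and 315 ± 21.0 CPM (SD, n = 3).

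CCN2 followed in the same direction with a smaller difference. It encodes connective tissue growth factor, a matricellular protein linked to fibrosis (chromosome 6, 132269316 to 132272512, minus strand). The gene was at 496, 507 and 476 CPM in siControl, at 388, 425 and 296 CPM in siLATS1, and at 487, 499 and 446 CPM in siLATS2. Again the 3 siLATS1 samples lay below all others, and siControl and siLATS2 overlapped. Its window printed above held 3 TEAD motifs, and their part in this difference was not tested.

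ANKRD1 codes for an ankyrin repeat protein of the nucleus and of muscle sarcomeres (chromosome 10, 92671853 to 92680844, minus strand). Its levels were 541, 329 and 306 CPM in siControl, 327, 303 and 188 CPM in siLATS1, and 399, 396 and 331 CPM in siLATS2. The siLATS1 samples lay below those of siLATS2, but they overlapped with siControl, in which replicate 1 was 1.71 times the mean of the other two.

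**Figure D1:**
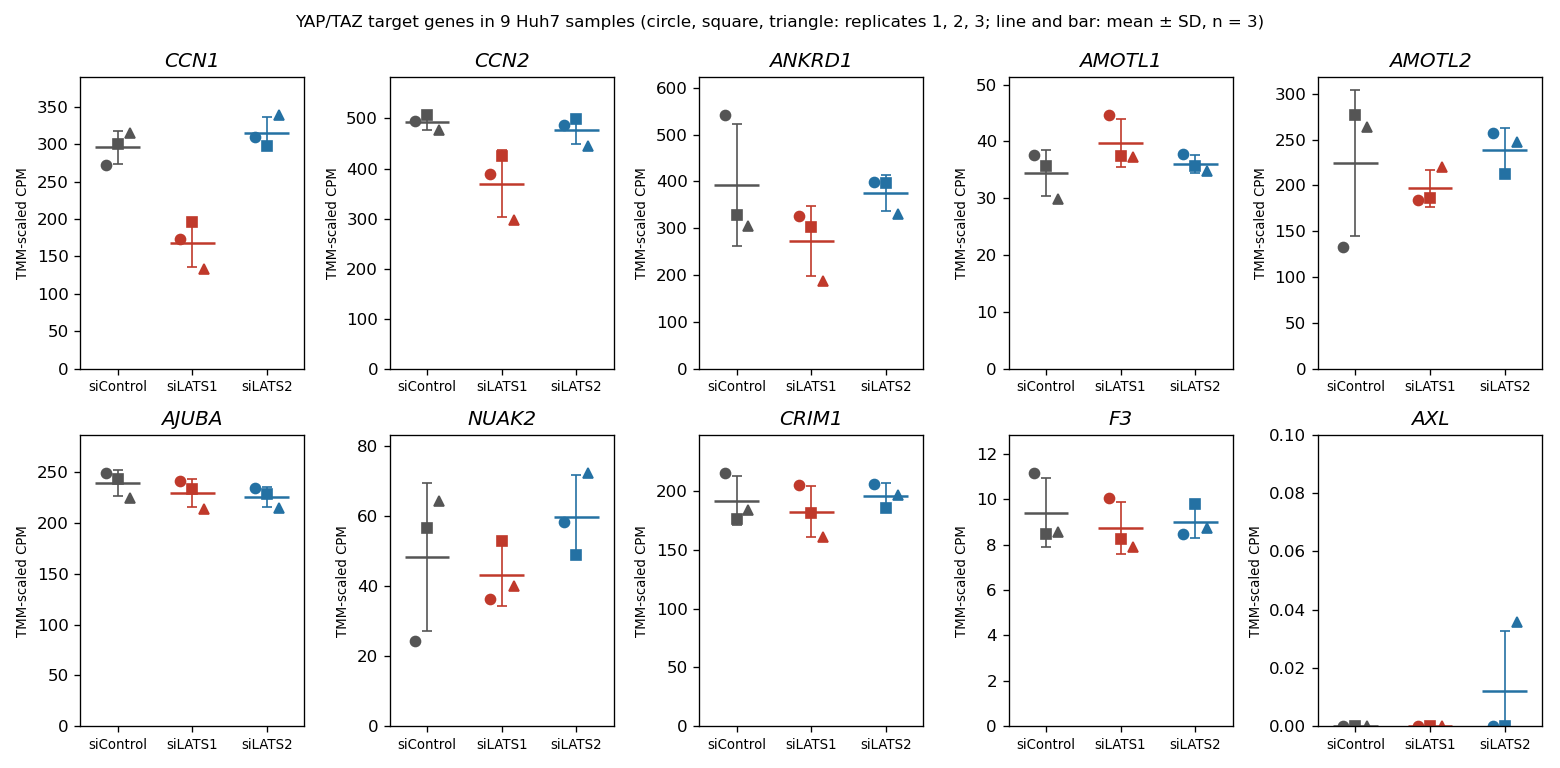
TMM-scaled CPM of the 10 YAP/TAZ target genes in each of the 9 samples, by siRNA. Circles, squares and triangles are replicates 1, 2 and 3, and lines with bars are the mean ± SD (n = 3). CCN1 and CCN2 sit lower in all 3 siLATS1 samples than in the other 6, whereas AJUBA, CRIM1 and F3 overlap in all groups. AXL has a single read in 1 sample.

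Of the members that feed back on the Hippo pathway, AMOTL2 and NUAK2 varied widely between the control libraries. AMOTL2, a scaffold of the angiomotin family that binds YAP, was at 133, 277 and 264 CPM in siControl, 184, 186 and 220.3 CPM in siLATS1, and 257, 212 and 247 CPM in siLATS2. NUAK2, a kinase of the AMPK family, was at 24.3, 56.4 and 64.1 CPM in siControl, 36.2, 52.9 and 40.1 CPM in siLATS1, and 58.15, 48.9 and 72.2 CPM in siLATS2. In both genes siControl replicate 1 was the lowest of the 9 samples, at 0.493 and 0.403 times the mean of the other siControl samples. All groups overlapped.

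AMOTL1, the second angiomotin-like scaffold, was at 37.6, 35.8 and 29.9 CPM in siControl, 44.6, 37.5 and 37.2 CPM in siLATS1, and 37.8, 35.6 and 34.8 CPM in siLATS2. AJUBA, a LIM protein that binds LATS kinases, ranged only from 214 to 249 CPM over the 9 samples. For both, the 3 groups overlapped.

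Of the membrane proteins, CRIM1, a cysteine-rich regulator of BMP signalling, lay between 161 and 215 CPM. F3, tissue factor, which starts blood coagulation, lay between 7.87 and 11.2 CPM, with 196 to 294 reads per sample behind it. Neither separated the groups. AXL, a receptor tyrosine kinase, had 0 reads in 8 samples and 1 read in siLATS2 replicate 3, where 1 read is 0.0359 CPM. A count of 0 allows up to 0.0932 to 0.127 CPM in these libraries (3 reads, counting error only), so no difference in AXL was detectable at this depth.

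In siLATS1 against siControl, 1 of the 9 tested members passed the threshold that the study used, which asks for a raw p below 0.05 together with an absolute log2 change of 0.58 or more. This was CCN1, which was lower. Of all tested genes 2.91% passed in either direction and 0.589% were lower. On the raw p alone 2 members passed, CCN1 and CCN2, against 5.78% of all tested genes, and after adjustment 0 members passed in limma, against 0.101%. On the scale of log2(CPM + 1) CCN1 fell by 0.83 (SE 0.16, 95% interval -1.20 to -0.46), which is 43.8% lower, with an unadjusted p of 0.00074 and an adjusted p of 0.16 in limma. It had the 59th smallest p-value and the 27th lowest log2 fold change of the 12901 genes. Without siControl replicate 1 the log2 fold change was -0.90 and the adjusted p 0.081. After adjustment it therefore missed 0.05 in limma and in edgeR (0.20), and passed only in DESeq2 (0.0015) among the tests run.

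For CCN2 the log2 fold change was -0.43 (SE 0.15, interval -0.77 to -0.08), with an unadjusted p of 0.02 and an adjusted p of 0.66, so it stayed short of the fold threshold. It was -0.44 without siControl replicate 1. Without siLATS1 replicate 3, the sample in which CCN1, CCN2 and ANKRD1 were all at their lowest, it was -0.27 and the unadjusted p rose to 0.081. With only the 6 samples compared in the fit this p was 0.051, so the raw p of CCN2 did not stay below 0.05. ANKRD1 had a log2 fold change of -0.51 (interval -1.14 to 0.11, adjusted p 0.98), which was -0.27 without siControl replicate 1 and -0.26 without siLATS1 replicate 3.

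The other 6 tested members had log2 fold changes between -0.12 in AMOTL2 and 0.20 in AMOTL1, with adjusted p-values of 0.98 to 0.99 in limma. For AJUBA the interval ran from -0.32 to 0.20, for CRIM1 from -0.39 to 0.24, for F3 from -0.49 to 0.30 and for AMOTL1 from -0.14 to 0.55, so changes past the fold threshold lay outside these 4. The intervals of AMOTL2 (-0.74 to 0.49) and NUAK2 (-0.88 to 0.75) were wider. Without siControl replicate 1 AMOTL2 had a log2 fold change of -0.47 (unadjusted p 0.0067, adjusted p 0.22) and NUAK2 of -0.50 (0.041 and 0.38), neither past the fold threshold. The other 4 were then between -0.04 in AJUBA and 0.26 in AMOTL1. None of the 9 members passed as higher.

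Over the 9 members the median log2 fold change was -0.09, beside 0.02 over all tested genes, and 8 of the 9 were below 0. Without siControl replicate 1 the median was -0.27 for the members and -0.01 over all tested genes. The lists of immediate-early and serum response factor genes read below were then at -0.24 and -0.40. In 2 members, CCN1 and CCN2, the siLATS1 samples all lay below the siControl samples, as in 2.71% of all tested genes. Against siControl replicates 2 and 3 alone, AMOTL2 and NUAK2 joined them, giving 4 members, and AMOTL1 was higher in every siLATS1 sample, but 13.7% of all tested genes were then separate as lower and 15.3% as higher.

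**Figure D2:**
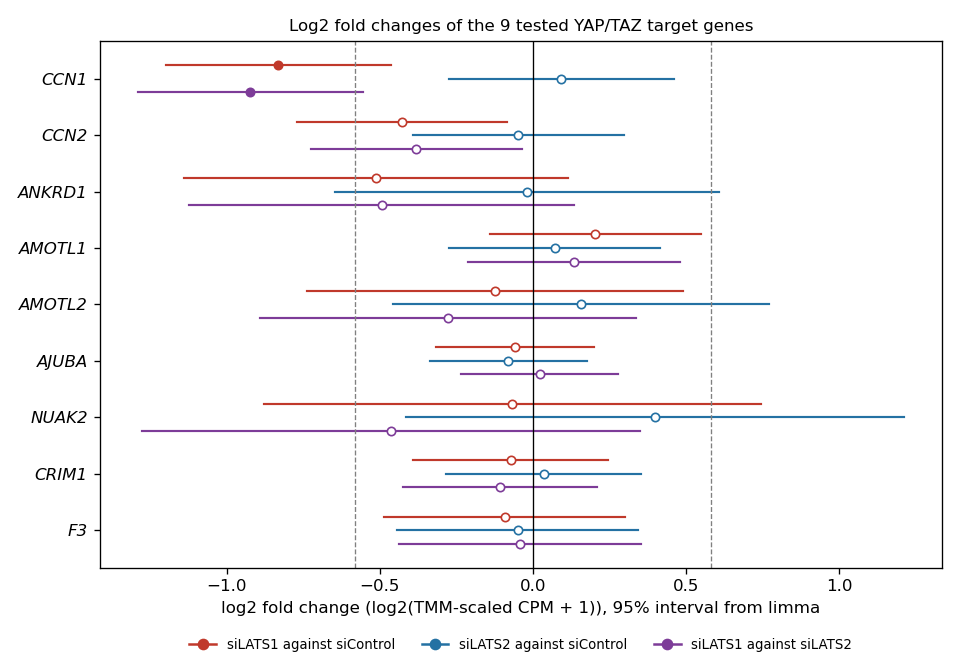
Log2 fold changes on the log2(TMM-scaled CPM + 1) scale of the 9 tested YAP/TAZ target genes in the 3 comparisons, with 95% intervals from limma. Filled points passed the threshold, and dashed lines mark its fold limit of 0.58. CCN1 is the only gene with filled points, at -0.83 and -0.92 for siLATS1, and it is near 0 at 0.09 for siLATS2.

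In siLATS2 against siControl, 0 of the 9 members passed the threshold, and 0.271% of all tested genes did. No member had an unadjusted p under 0.05 in limma, edgeR or DESeq2, and in limma 0.853% of all tested genes did. CCN1 had a log2 fold change of 0.09 (interval -0.28 to 0.46), CCN2 of -0.05 (-0.39 to 0.30) and ANKRD1 of -0.02 (-0.65 to 0.61). With siControl replicate 1 left out these 3 genes were at 0.02, -0.06 and 0.22. The largest was 0.40 in NUAK2 (-0.42 to 1.21), which became -0.04 without siControl replicate 1, when the other 5 lay between -0.20 in AMOTL2 and 0.12 in AMOTL1. Adjusted p-values in limma were 0.95 to 0.99. The median of the 9 was 0.03, as over all tested genes (0.03), and in 0 members did the samples of the groups separate, against 3.51% of all tested genes. Against siControl replicates 2 and 3 alone, AMOTL2 was separate as lower, as were 10.4% of all tested genes, and ANKRD1 and CRIM1 as higher, as were 13%. A rise past the fold threshold lay outside the intervals of CCN1 and CCN2, but inside those of AMOTL2, ANKRD1 and NUAK2.

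**Figure D3:**
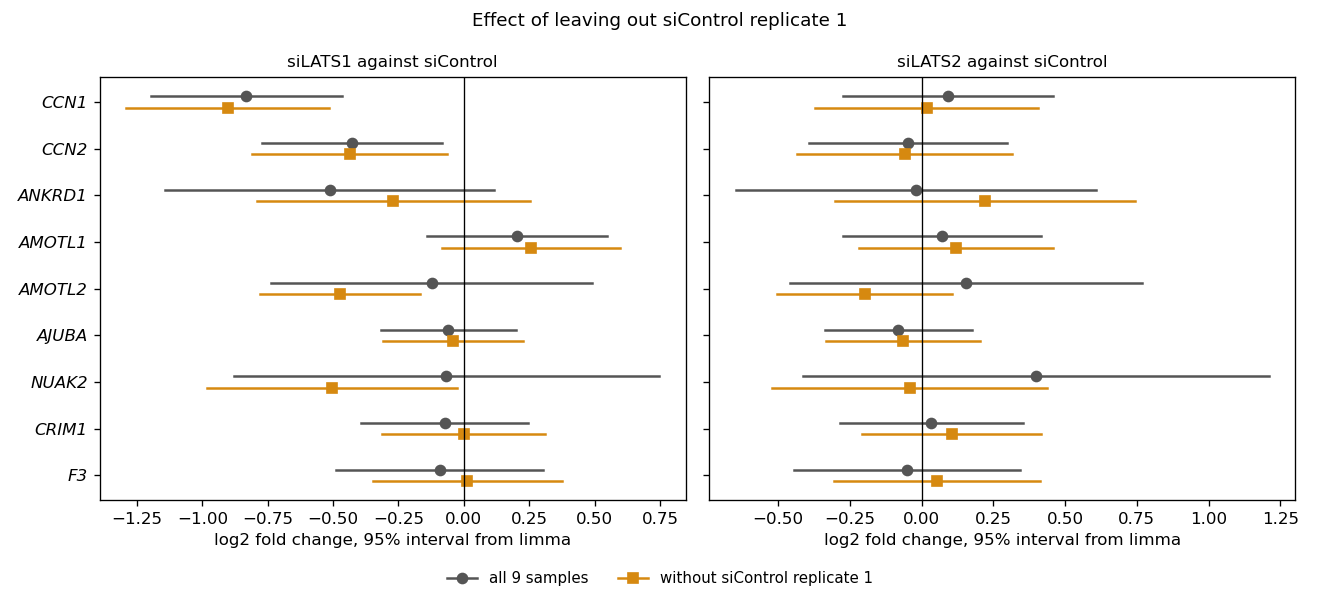
Log2 fold changes of the 9 tested members with all 9 samples (grey) and without siControl replicate 1 (orange), with 95% intervals from limma, for siLATS1 (left) and siLATS2 (right) against siControl. CCN1 in siLATS1 is at -0.83 and -0.90, whereas AMOTL2 moves from -0.12 to -0.47 and NUAK2 from -0.07 to -0.50.

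The direct comparison of siLATS1 with siLATS2 does not use the siControl samples for its difference. Its groups still hold the siLATS1 and siLATS2 libraries that deviated with or against siControl replicate 1. CCN1 was again the 1 member of 9 that passed the threshold, against 1.86% of all tested genes in either direction and 0.519% lower. The log2 fold change was -0.92 (SE 0.16, interval -1.29 to -0.56), a level 47.3% lower in siLATS1, with an unadjusted p of 0.00037 and an adjusted p of 0.20. CCN2 had a log2 fold change of -0.38 (interval -0.72 to -0.04, unadjusted p 0.034, adjusted p 1) and ANKRD1 of -0.49 (-1.12 to 0.13). Without siLATS1 replicate 3 they were at -0.22 (unadjusted p 0.14) and -0.24. In CCN1, CCN2 and ANKRD1 the samples of the groups did not overlap, being lower in siLATS1, as in 6.63% of all tested genes. The median of the 9 members was -0.28, beside -0.03 over all tested genes, and 7 of the 9 were below 0. NUAK2 had -0.46 (-1.28 to 0.35) and AMOTL2 -0.28 (-0.89 to 0.33), both with overlapping samples. After adjustment 0 genes of all 12901 passed in limma or edgeR, 505 (3.91%) had an unadjusted p under 0.05 in limma, and 100 passed in DESeq2, CCN1 among them.

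The co-activators and their partners were then read as a list. Of 8 tested genes of YAP1, WWTR1, TEAD and VGLL factors, 0 passed in any of the 3 comparisons. YAP1 was at 126, 68.9 and 83.3 CPM in siControl, 112, 76.3 and 78.0 CPM in siLATS1, and 71.9, 101 and 66.1 CPM in siLATS2, all overlapping. WWTR1, which encodes TAZ, was at 37.2, 26.2 and 27.5 CPM in siControl, 43.2, 36.9 and 35.5 CPM in siLATS1, and 27.7, 30.04 and 23.8 CPM in siLATS2. Its 3 siLATS1 samples were above those of siLATS2, with a log2 fold change of 0.49 (unadjusted p 0.028, adjusted p 1), and overlapped with siControl (0.35, adjusted p 0.98). With siControl replicate 1 left out the latter was 0.49 (unadjusted p 0.013, adjusted p 0.27), still short of the fold threshold, and YAP1 was at 0.19. These are RNA levels, and the location of the proteins was not measured here.

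A list of 11 further tested genes of YAP/TAZ signatures gave 0 called genes in every comparison. In siLATS1 against siControl 5 of them had log2 fold changes below 0 and 6 above, with a median of 0.04. PTPN14, a phosphatase that restrains YAP, was at 0.36 (unadjusted p 0.019, adjusted p 0.66) and CCDC80, a secreted matrix protein, at 0.38 (0.032 and 0.73), and both were higher in every siLATS1 than in every siControl sample. DOCK5, an activator of Rac, was at -0.29 and lower in every siLATS1 sample. Against siControl replicates 2 and 3 alone PTPN14 was at 0.37, CCDC80 at 0.25 and DOCK5 at -0.21, and the median of the list turned to -0.04. The signature genes outside the 10 members thus had values on both sides of 0.

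**Figure D4:**
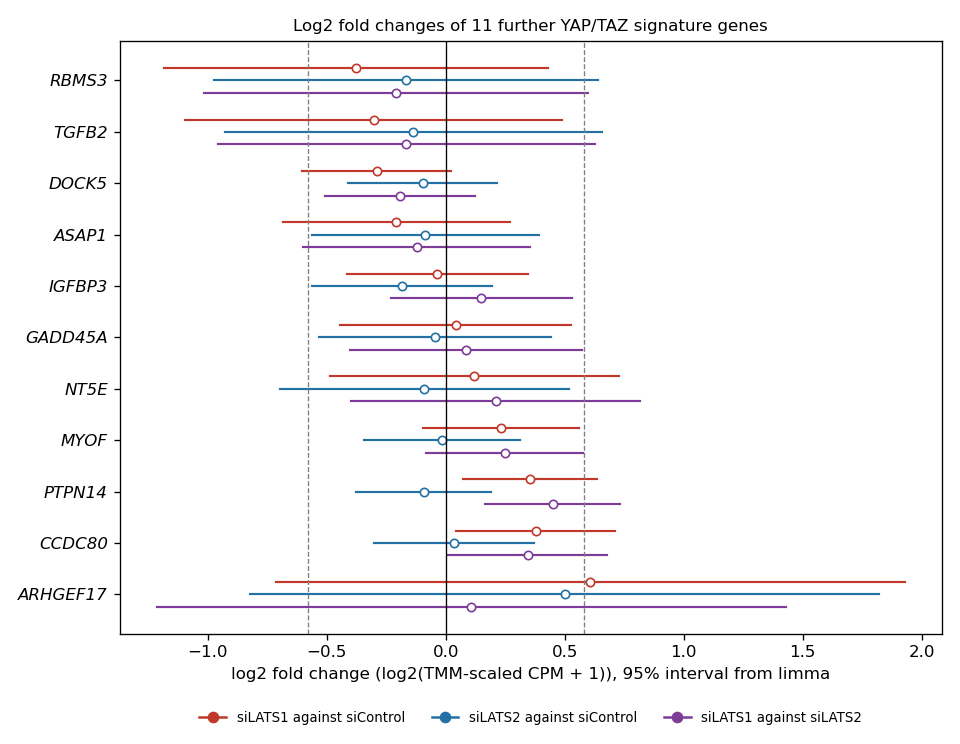
Log2 fold changes on the log2(TMM-scaled CPM + 1) scale of 11 further tested YAP/TAZ signature genes in the 3 comparisons, with 95% intervals from limma and dashed lines at the fold threshold of 0.58. No point is filled, since 0 genes passed. For siLATS1 against siControl the values run from -0.38 in RBMS3 to 0.61 in ARHGEF17, which were at -0.06 and -0.08 without siControl replicate 1.

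Among 12 tested Hippo pathway kinases and adaptors only LATS1 passed, in both comparisons with siLATS1. Of 6 tested relatives of the members, 0 passed. AMOT, the third angiomotin, had a log2 fold change of 0.45 in siLATS1 against siControl (unadjusted p 0.021, adjusted p 0.66) and LIMD1, a LIM protein related to AJUBA, of -0.45 (0.011 and 0.54). Both stayed close to this without siControl replicate 1, at 0.47 and -0.43. CCN3, CCN4, CCN5 and CCN6 were too low to be tested, at 0 to 1.04 CPM.

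CCN1 and CCN2 also respond to growth factor and serum response factor (SRF) signals, so lists of immediate-early and SRF genes were read beside them. With all 9 samples, 0 of 12 tested immediate-early genes passed in siLATS1 against siControl, and 0 had an unadjusted p under 0.05 in limma. Against siLATS2 1 passed, IER3, an early response gene of cell survival, with a log2 fold change of -0.72 (adjusted p 1). Of 11 tested SRF cytoskeletal genes TAGLN, an actin-binding protein, was higher, by 1.66 against siControl (adjusted p 0.27) and 1.37 against siLATS2 (adjusted p 0.59), although its level was only 0.351 to 8.31 CPM. Against siControl replicates 2 and 3 alone TAGLN was higher by 1.3 (adjusted p 0.16). Over the 11 SRF genes the median log2 fold change was 0.08 against siControl, with 2 genes below 0 and 9 above. This median was -0.40 without siControl replicate 1. Against siLATS2 it was -0.19, with 8 genes below 0 and 3 above. Without siControl replicate 1, IER3 passed as lower against siControl too, at -0.73 (unadjusted p 0.0015, adjusted p 0.12 in limma). IER2 (-0.55), MYC (-0.55) and ATF3 (0.40) then had an unadjusted p under 0.05 in limma but stayed short of the fold threshold. The median of the immediate-early list moved from -0.01 to -0.24. In siLATS2 against siControl neither of these lists held a called gene in limma.

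The samples carried markers of hepatocyte-like cells, with albumin (ALB) at 2962 to 6210 CPM and alpha-fetoprotein (AFP) at 4379 to 10032 CPM. Levels differed widely within the list of hepatocyte markers. The lowest were APOA1, at most 118 CPM, and TTR, at most 50.2 CPM. Of 9 hepatocyte markers, 3 passed in siLATS1 against siControl, SERPINA1 (0.72) and TTR (0.77) higher and APOB (-0.70) lower, and none of them without siControl replicate 1, when they were at 0.52, 0.39 and -0.50. SERPINA1 was also called higher in siLATS1 against siLATS2, a difference that uses no siControl sample, at 0.63 (adjusted p 0.89). Of 9 markers of fibroblasts, leukocytes and endothelium, 5 were tested and 1 passed, PECAM1 at -0.72 (-0.64 without siControl replicate 1), with a level of 0.643 to 2.72 CPM. The defining endothelial markers CDH5, VWF and LYVE1 were at or near 0 (at most 0.214 CPM) and the leukocyte marker PTPRC was at most 1.03 CPM. CD68, a macrophage marker listed with PTPRC, was at 0.703 to 3.47 CPM and was not called in any comparison. The highest of these 9 markers was COL1A2, a fibroblast marker, at 3.997 to 22.97 CPM with 91 to 572 reads per sample. In bulk samples a change in the cells present and a change of RNA per cell cannot be told apart.

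For the members with the clearest group pattern, the tested genes most like them across the 9 samples were sought. For CCN1 these were SLC20A2 (Pearson's r 0.962), SPP1 (0.945), THBS1 (0.941), CNNM1 (0.94) and CXCR4 (0.931). THBS1, which encodes the matrix protein thrombospondin 1, had means of 839, 578 and 1010 CPM in siControl, siLATS1 and siLATS2. For CCN2 they were TAF5L (0.972), PSMD7 (0.967), NOLC1 (0.958), CA12 (0.958) and KRT23 (0.956). These correlations describe 9 samples that share groups and library differences, and the genes were picked as the highest of 12901.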

How the data were processed

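RNA-seq libraries of 9 Huh7 samples were prepared with a stranded total RNA kit. The labels name removal of ribosomal RNA, whereas the methods of the study speak of poly-A+ RNA. Per the methods of the study, single-end reads of 81 bases were mapped uniquely to hg19 (GRCh37) with STAR and counted over RefSeq mRNA exons with QuasR 1.12.0. The authors deposited CPM per gene and sample. In each file all values were whole multiples of 1 read (within 0.01), which gave the depth of 23548247 to 32193525 reads. Entrez numbers were matched to RefSeq symbols for 20474 of 20575 genes, and 1 row per file without a gene was left out.

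CPM were scaled by TMM factors (trims of 30% and 5%), genes that reached 1 CPM in fewer than 3 of the 9 samples were dropped, and log2(CPM + 1) was fitted with limma 3.58.1 (R 4.3.3), 1 mean per group over all samples, with Benjamini-Hochberg adjustment over the 12901 tested genes. Fold changes on this scale understate changes of low genes. A called gene had a raw p below 0.05 and an absolute log2 change of 0.58 or more, as in the study. Only unique hits were counted, so near-identical copies lose reads. The script was tested on simulated data, with planted changes larger than that of any member here and no library apart. That test therefore does not cover the setting of these data. Alternatives were CPM without TMM, no or a stricter filter, a pseudocount of 0.1, edgeR 4.0.16 and DESeq2 1.42.0 on recovered reads, 6 samples, a replicate block and each sample left out.

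The members and lists were chosen with earlier results of these data known. Named were all members, LATS1, YAP1, WWTR1, called genes of each list and the 5 genes most like CCN1 and CCN2. PTPN14, CCDC80, DOCK5, AMOT, LIMD1, IER2, MYC, ATF3, APOA1, CD68 and COL1A2, and the ends of ranges, were named after their values were seen. A further list, of TGF-beta response genes, is not reported here. Transcript lengths and siRNA sites are from GENCODE (GRCh37) and promoters from RefSeq.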

Additional observations from a re-analysis of the deposited data

Results flagged for a closer look

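CCN1 differed between the siLATS1 and siLATS2 cells when their effects were compared directly. The log2 fold change was -0.92 (SE 0.16, unadjusted p 0.00037, adjusted p 0.20 in limma), with 134 to 196 CPM in siLATS1 and 298 to 339 CPM in siLATS2, so that no samples overlapped. In limma and edgeR the difference was past the threshold on the unadjusted p only, whereas in DESeq2 the adjusted p was 0.00047.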

How the results depend on the processing

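The numbers of called members (1 in siLATS1 against siControl, 0 in siLATS2 against siControl and 1 in siLATS1 against siLATS2) were equal under all 17 alternatives, and the called member was CCN1 each time. Its log2 fold change lay between -0.96 and -0.67 against siControl and between -1.05 and -0.76 against siLATS2, with adjusted p-values of 0.0015 to 0.77 and of 0.00047 to 1. Only DESeq2 gave the values below 0.05.

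Uncalled members near 0 changed sign under some settings. With CPM as deposited and no TMM factors, which moved the median of all genes to 0.10, AJUBA was at 0.031, CRIM1 at 0.016 and NUAK2 at 0.021 in siLATS1 against siControl, and F3 at 0.025 in siLATS1 against siLATS2. CRIM1 in siLATS2 was at -0.0019 in edgeR and at -0.015 with only the 6 samples compared. Leaving out 1 sample gave, in siLATS1 against siControl, -0.47 to 0.016 for AMOTL2, -0.18 to 0.019 for CRIM1, -0.20 to 0.013 for F3 and -0.50 to 0.18 for NUAK2. In siLATS2 against siControl it gave -0.11 to 0.00098 for CCN2, -0.19 to 0.22 for ANKRD1, -0.037 to 0.12 for AMOTL1, -0.20 to 0.30 for AMOTL2, -0.086 to 0.10 for CRIM1, -0.17 to 0.054 for F3, -0.042 to 0.64 for NUAK2 and -0.52 to 0.019 for LATS1. In siLATS1 against siLATS2 it gave -0.024 to 0.081 for AJUBA and -0.15 to 0.029 for F3.

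Counts over all genes moved more. Against 376 called in siLATS1, 730 were called without siControl replicate 1 (339 higher and 391 lower, against 300 and 76) and 221 without siLATS1 replicate 3. Against 35 in siLATS2, there were 72 with a pseudocount of 0.1, 68 in edgeR, 70 in DESeq2 and 21 with 6 samples, and 11 (without siLATS2 replicate 3) to 69 (without siControl replicate 1) with 1 sample left out. After adjustment 13 genes passed in siLATS1 against siControl, 40 without siControl replicate 1 and 166 in DESeq2. The number was 5 in edgeR and 0 with only the 6 samples compared. It was also 0 without siControl replicate 2 or 3, without any 1 siLATS1 replicate, and without siLATS2 replicate 1. Without siLATS2 replicate 2 or 3 it was 1. Between siLATS1 and siLATS2 it was 0 genes in limma, 3 with no filter, 19 without siControl replicate 1 and 100 in DESeq2. The cause was not tested.

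The groups share replicate numbers, but samples of the same number did not deviate together throughout (r from -0.874 to 0.92, above 0.1 in 5 of 9 pairs). The mean r was 0.205 in these 9 pairs and -0.104 in the 18 pairs of unlike number. In those 18 pairs r ran from -0.915 to 0.872 and was above 0.1 in 8. Of the 9 samples, 6 were closest to their own number. Whether samples of the same number were made together was not tested. With the replicate block 400, 46 and 256 genes were called in the 3 comparisons and 0 after adjustment, and 1, 0 and 1 members, with CCN1 at -0.83 and -0.92. With 3 samples per group and 1 library apart, differences in AMOTL2, ANKRD1 and NUAK2 smaller than their intervals were not detectable. Leaving that library out did not remove variation of its kind within the other groups. AXL had 0 or 1 read per sample, too few to compare.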
